A study of Mus musculus with 96 samples.

Results

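The measurements are transcript counts in skeletal muscle of 16 female mice, 8 fed ad libitum (AL, mice 25 to 32) and 8 kept on intermittent fasting (IF, mice 33 to 40). The libraries were chosen by their labels, as the muscle libraries that carry these mouse numbers, and they are 16 of the 96 libraries of the series, which also holds liver, cerebral cortex and male mice. The comparison asks which transcripts of muscle differ between the diets within these females. The labels give tissue, sex, diet and a replicate number, but no strain, genotype, age, feeding hours or name of the muscle. The text of the series and the methods of the study give 16 h of fasting each day for 4 months, but they describe male C57BL/6 mice, and whether the schedule also holds for the females is not stated. AL and IF mice that share a replicate number are different animals. Poly-A RNA was sequenced, and the authors counted reads per gene. The AL libraries held 30141767 to 49838004 counts on genes (median 35315098) and the IF libraries 36331661 to 44165322 (median 40190944). Levels are given as CPM, counts relative to the scaled library total, and levels of different genes are compared only per length, as RPKM.

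The libraries carried the sex and the tissue of their labels. Xist, the RNA that coats the inactive X chromosome, lay between 40.8 and 69.7 CPM in the 16 libraries, and the 4 Y-linked genes Ddx3y, Uty, Kdm5d and Eif2s3y had 0 counts in every one. All 10 markers of skeletal muscle fibres were tested, and their sum ran from 121379 to 150262 CPM in AL mice and from 123340 to 160307 CPM in IF mice. Acta1, skeletal actin, was the most abundant of them per length, at a mean of 32457 RPKM. Myh4, the myosin of the fastest fibres, had a mean of 6112 RPKM against 35.04 RPKM for Myh7, the myosin of slow fibres. The 5 hepatocyte markers summed to at most 5.41 CPM, and none passed the expression filter.

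Skeletal muscle takes up much of the glucose that follows a meal and turns to fatty acids when food is withheld. In that switch pyruvate dehydrogenase kinases close the entry of pyruvate into the mitochondrial fuel cycle, and PPAR receptors raise genes of fatty acid oxidation. Glucocorticoids and FoxO factors raise ubiquitin ligases that mark contractile proteins for breakdown, and the hour of feeding resets the clock genes of the muscle.

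The diet contrast passed the test for very few genes in these females. Of 15308 genes tested with edgeR's quasi-likelihood test, 1 was called at an adjusted p under 0.05 (0.00653% of the genes tested), and it was higher in IF. At an unadjusted p under 0.05 there were 1644 genes (10.7%), 780 higher in IF (5.10%) and 864 lower (5.64%). The DESeq2 Wald test, run on 32913 genes with its own filtering, called 83 genes, 48 higher and 35 lower in IF, where edgeR called 5 of the same 32913. On the 15308 genes that edgeR tested, an alternative chosen after seeing the data, DESeq2 called 91, of which 82 were among the 83, so the number called depends on the tool. Leaving out 1 library changed the edgeR count beyond 1.5 times in 2 of 16 cases, to 3 without AL mouse 27 and to 2 without IF mouse 33. The 82 further genes of that test had edgeR adjusted p-values between 0.185 and 0.795 (the highest for Fn1), and all 83 had the same direction in both tools. Estimates were small over the table: the median log2 fold change of IF against AL was -0.02, and the 5th and 95th percentiles were -0.44 and 0.28. The 95% interval lay within a 2-fold change in both directions for 13431 genes (87.7%), which limits how large most of the uncalled differences can be. AL and IF libraries did not overlap in CPM for 12 genes (0.0784%). Of the squared distances among the 16 libraries, in log2 CPM, 6.46% lay between the diets, with an exact permutation p of 0.409 from all 12870 ways to divide them 8 against 8. On linear CPM, where the most abundant genes weigh most, the share was 17.6% with an exact permutation p of 0.0430.

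The called gene was Rn18s-rs5, an 18S ribosomal RNA sequence annotated on chromosome 17 from 40157244 to 40159092 in GRCm39. It lay between 587 and 777 CPM in AL mice (median 639) and between 866 and 1860 CPM in IF mice (median 1336). All 8 IF libraries were above the highest AL library, and within IF the lowest was mouse 33 and the highest mouse 35. The log2 fold change was 1.003 (SE 0.12, 95% interval 0.74 to 1.26, adjusted p = 0.00204, 8 mice per diet). Ribosomal RNA has no poly-A tail, so its counts here are what remained after poly-A selection, and the near-identical copies of the gene make the assignment of its reads uncertain. The mitochondrial ribosomal RNAs, which are also counted, had log2 fold changes of -0.02 (mt-Rnr1) and -0.09 (mt-Rnr2). In the male muscle libraries Rn18s-rs5 differed in the opposite direction, by -0.83 (adjusted p = 0.000317), and the difference between the sexes was 1.85 (SE 0.19, adjusted p = 4.93e-07). In liver and cortex of the same female mice the log2 fold changes were -0.02 and 0.20, with adjusted p-values of 0.988 and 0.555. Whether the difference reflects ribosome content or the removal of ribosomal RNA during library preparation cannot be told apart. Without the 6 libraries in which Gnas was low (AL mice 28 to 32 and IF mouse 33, described further on), an alternative chosen after seeing the data, the estimate over the remaining 3 AL and 7 IF mice was 0.97 but was not called. Over the 33 alternatives tried its adjusted p-values lay between 1.03e-11 and 0.262, the last being the fit without those 6 libraries.

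**Figure D1:**
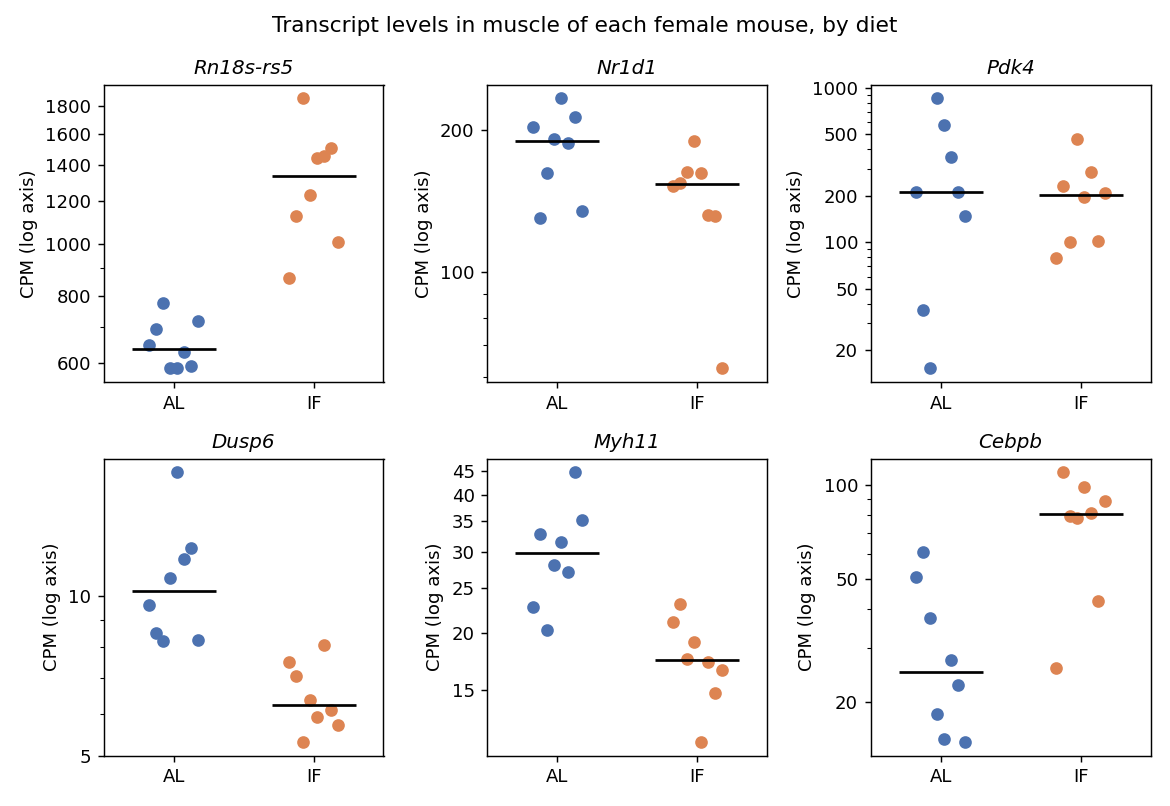
Each point is 1 female mouse, the y axis gives CPM on a log scale, and the bar marks the median of 8 mice per diet. Rn18s-rs5 lies between 587 and 777 CPM in AL and between 866 and 1860 CPM in IF, and Dusp6 does not overlap either, whereas Nr1d1, Pdk4, Myh11 and Cebpb overlap between the diets.

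Among the clock genes, edgeR called 0 of 18 tested and DESeq2 also called 0. At an unadjusted p under 0.05, 4 were higher in IF (Usp2, Cry2, Tef and Dbp) and 1 was lower (Arntl, the BMAL1 gene). The shares of all genes at that p were 5.10% higher and 5.64% lower. The list had 11 genes higher and 7 lower, with a median log2 fold change of 0.03 beside -0.02 over all genes. In the 10 libraries not low in Gnas 14 were higher and 4 lower (median 0.16), beside 7738 of 15302 genes higher over all (median 0.003). There log2 fold changes were 0.57 for Per1 (95% interval 0.21 to 0.92) and 0.59 for Per2 (0.26 to 0.93), with edgeR adjusted p-values of 0.548 and 0.512. Arntl had -0.63 (-1.41 to 0.16, adjusted p = 0.761). That fit, chosen after seeing the data, has 3 AL and 7 IF mice and called 0 genes. Nr1d1, which encodes the repressor REV-ERB alpha, lay between 130 and 233 CPM in AL (median 189) and between 62.6 and 189 CPM in IF (median 153). No IF library was above the AL median, but the groups overlapped, and IF mouse 40 was far below the rest. Its log2 fold change was -0.34 (95% interval -0.72 to 0.03, adjusted p = 0.495). Per1 ran from 42.8 to 94.3 CPM in AL and from 57.6 to 100.3 CPM in IF, with a log2 fold change of 0.24 (95% interval -0.13 to 0.62). Usp2, a deubiquitinase under clock control, ran from 137 to 201 CPM in AL and from 177 to 264 CPM in IF, and 5 IF libraries were above the highest AL library. Dbp, a clock output factor and the most abundant clock gene per length, had a log2 fold change of 0.22 (95% interval 0.02 to 0.42). The core factors Clock, Cry1, Per3, Nr1d2, Rora and Bhlhe41 lay within 0.10 of 0 on the log2 scale.

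In the males the same genes differed widely, and a joint fit of the 32 muscle libraries tested whether the response to diet depended on sex (the interaction). Of 16346 genes in that fit, 2314 had a called interaction (14.2%). Without the 6 female libraries low in Gnas, an alternative chosen after seeing the data that leaves 3 AL and 7 IF females, 922 were called, 818 of them among the 2314. Of 48 named genes with a called interaction that were tested in females, 30 were still called and 0 turned in sign. The 18 no longer called were Acta1, Acta2, Cidea, Cry1, Dusp6, Fbn1, Fdft1, Insig1, Mt1, Myf6, Myh11, Pdk4, Per2, Psmb5, Psmd9, Pygm, Rora and Tpm1. The calls over all 32 libraries included 8 of 19 clock genes. Nr1d1 had a male log2 fold change of -2.47 and an interaction of 2.15 (SE 0.22, adjusted p = 4.93e-07). Per1 had 2.04 in males and an interaction of -1.77, Per2 1.59 and -1.27, and Per3 1.05 and -1.05. Npas2, a partner of BMAL1, did not pass the filter in female muscle and had an interaction of 2.12. The interactions of Rora, Cry1 and Clock were -0.50, 0.41 and 0.44. For Arntl, Cry2, Tef, Dbp, Usp2, Nfil3, Hlf, Ciart, Bhlhe40, Bhlhe41 and Nr1d2 the interaction was not called. The tissue of the males was collected in daytime hours, and the collection hour of the females is not given, so sex and time of collection cannot be told apart.

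**Figure D2:**
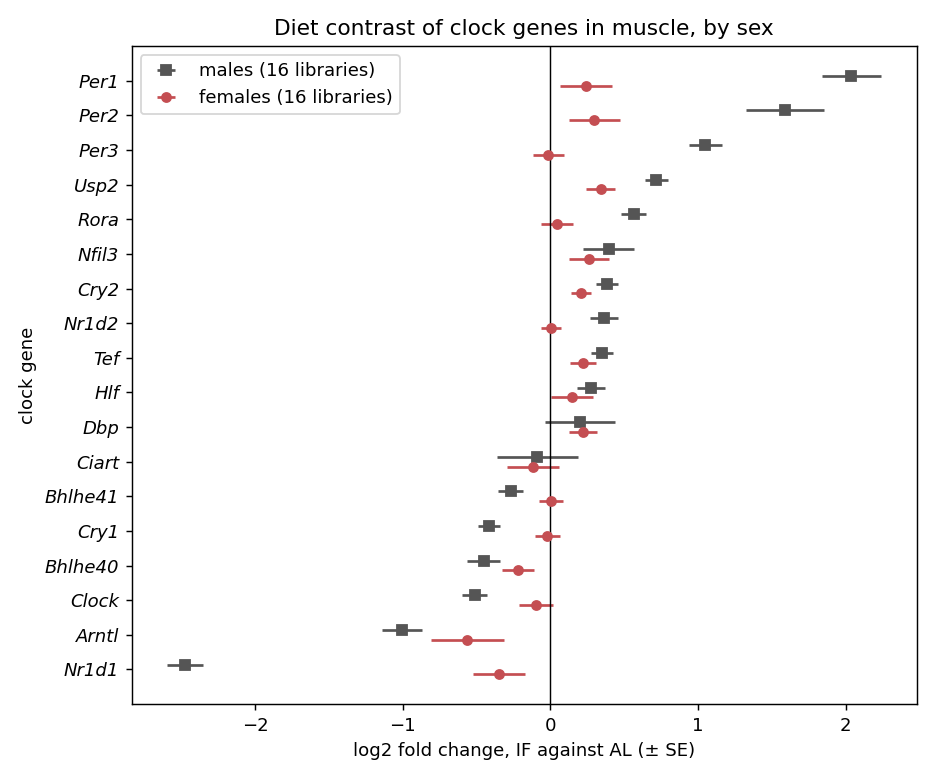
Points give the log2 fold change of IF against AL for each clock gene in muscle, with bars of 1 SE, for 16 female and 16 male libraries. The female values lie between -0.56 and 0.34, and the male values between -2.47 and 2.04.

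Pyruvate and fatty acid genes, known to respond to food deprivation in muscle, did not pass the adjusted threshold either. Pdk4, the kinase that closes pyruvate dehydrogenase during fasting, lay between 15.3 and 852 CPM in AL (median 212) and between 78.8 and 467 CPM in IF (median 203). The widest range was among AL mice, with mouse 28 highest and mouse 27 lowest, and every IF library lay within it. The log2 fold change was -0.53 with a 95% interval from -1.94 to 0.88, against a male estimate of 2.58, and the interaction was -3.08 (SE 0.71, adjusted p = 0.00372). In the 10 libraries not low in Gnas the sign turned, to 1.36 with a 95% interval from -0.60 to 3.33 that includes the male estimate, and the interaction was -1.21 and not called (adjusted p = 0.343). Of 15 genes around pyruvate dehydrogenase 4 were higher and 11 lower (median -0.07), 3 were higher and 0 lower at an unadjusted p under 0.05, and edgeR and DESeq2 called 0. Among all genes 6937 of 15308 were higher, and 5.10% were higher and 5.64% lower at that p. Pyruvate dehydrogenase kinase Pdk2 was the most abundant per length. Of 41 genes of fatty acid uptake and oxidation, 33 were lower and 8 higher in IF (median -0.10, beside -0.02 over all genes), with 3 lower at an unadjusted p under 0.05 and 0 called by edgeR or DESeq2. Both directions turned in the 10 libraries not low in Gnas, to 13 of 15 higher (median 0.09) around pyruvate dehydrogenase and 33 of 41 higher (median 0.16) in fatty acid oxidation. At an unadjusted p under 0.05, 1 and 7 of them were higher there and 0 lower. Slow fibre genes moved with them in those libraries, with 9 of 9 higher (median 0.99, beside 0.17 over all 16). Fabp3, the fatty acid binding protein of muscle and the most abundant of them per length, lay between 299 and 966 CPM in AL and between 212 and 807 CPM in IF. Ucp3, a mitochondrial carrier that rises on fasting, had a log2 fold change of 0.07 (95% interval -0.58 to 0.71) and an interaction with sex of -2.07 (SE 0.36, adjusted p = 0.000248). Without the libraries low in Gnas these were 0.75 (95% interval -0.28 to 1.78) and -1.41 (adjusted p = 0.0390).

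Genes of glucose use leaned the other way over the 16 libraries without passing the adjusted threshold. Of 38 genes of glucose uptake, glycolysis and glycogen, 27 were higher and 11 lower (median 0.09), 11 were higher and 1 lower at an unadjusted p under 0.05, and edgeR and DESeq2 called 0. Over all genes 6937 of 15308 were higher, and 5.10% were higher at that p. Pkm, pyruvate kinase of muscle, lay between 3105 and 5140 CPM in AL and between 4470 and 6112 CPM in IF, and 6 IF libraries were above the highest AL library. Pygm, glycogen phosphorylase of muscle, ran from 7649 to 10425 CPM in AL and from 8968 to 11376 CPM in IF. Their log2 fold changes were 0.34 and 0.24, with 95% intervals of 0.14 to 0.54 and 0.09 to 0.39. Aldoa, aldolase, was the most abundant per length. Fast fibre genes leaned in the same direction, with 12 of 14 higher, 6 of them at an unadjusted p under 0.05, a median of 0.18 and 0 called by either tool. Actn3, an actin crosslinker of fast fibres, ran from 9058 to 13077 CPM in AL and from 11209 to 17870 CPM in IF. Pvalb, a calcium buffer, was the most abundant of the fast fibre list per length, and Tpm1 had a log2 fold change of 0.31 (95% interval 0.12 to 0.50). The lowest glucose sums were those of AL mice 28, 29 and 30, at 58102 to 63904 CPM, and the lowest fast fibre sums those of AL mice 28 to 31, at 141021 to 152901 CPM. These mice were among those low in Gnas. In the 10 other libraries 30 of 38 glucose genes were higher (median 0.12), 2 of them at an unadjusted p under 0.05, and 9 of 14 fast fibre genes (median 0.07), 1 of them and 1 lower gene at that p. Fatty acid oxidation genes were mostly higher there too (33 of 41), so the contrast with glucose genes was lost. Over all genes 7738 of 15302 were higher in that fit. There Pkm had 0.21 (95% interval -0.01 to 0.43) and Tpm1 0.14 (-0.09 to 0.36).

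Muscle wasting and hormone response genes had estimates of either sign. Of 18 ubiquitin ligases, FoxO factors and related genes edgeR called 0, with 10 higher and 8 lower (median 0.03), 1 lower at an unadjusted p under 0.05, and DESeq2 called 0. The shares of all genes at that p were 5.10% higher and 5.64% lower. Trim63 (MuRF1) ranged from 145 to 264 CPM in AL and from 139 to 239 CPM in IF, and its log2 fold change of 0.01 had a 95% interval of -0.24 to 0.27. Fbxo32 (atrogin-1) had a log2 fold change of -0.21 (95% interval -0.81 to 0.40). Their interactions with sex were -1.11 and -1.42. Of 14 genes induced by glucocorticoids 7 were higher and 7 lower (median 0.00), 1 in each direction at an unadjusted p under 0.05, and edgeR and DESeq2 called 0. Ddit4 and Klf15, both raised by glucocorticoids, had interactions of -2.49 and -0.81, and Tsc22d3, the most abundant of the list per length, -1.06. Glul, glutamine synthetase, which was chosen after its values were seen, had a female log2 fold change of 0.27 and an interaction of -1.31. Klf10, chosen in the same way, had a log2 fold change of -0.59 in females, with an adjusted p of 0.212 in edgeR and 0.0390 in DESeq2, and 1.14 in males (interaction -1.72, adjusted p = 1.13e-06).

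Transcripts that the study names for muscle of males were read in the females as a list of 9. edgeR and DESeq2 called 0 of them, and 1 was lower at an unadjusted p under 0.05 (Grip2). Ank1, ankyrin 1, lay between 363 and 771 CPM in AL and between 466 and 813 CPM in IF, and Kcnj11, a potassium channel subunit, between 187 and 276 CPM and between 223 and 318 CPM. Both leaned to higher values in IF, with log2 fold changes of 0.22 and 0.18, whereas in males they were -0.64 and -0.57. The female values were 0.04 and 0.11 in the 10 libraries not low in Gnas, and the list went from 5 of 9 higher to 6 of 9 lower. The study named these transcripts for their difference in males, so a difference between the sexes is in part set by that choice, and the interactions are given as a description. The interaction was called for 8 of the 9, beside 14.2% of all genes: Kcnj11 0.77, Ank1 0.88, Aurka 1.04, Shc2 0.96, Grip2 1.17 and Nr1d1 as above, Nr4a1 -0.70 and Pdk4 as above. For Ndufs4 it was not called.

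Most genes of blood vessels and of the matrix had lower estimates in IF, with 0 called by edgeR in each list. Of 4 smooth muscle markers 4 were lower (median -0.73), of 8 endothelial markers 8 (median -0.37) and of 22 collagens and matrix genes 20 (median -0.27), beside 54.7% of all genes lower and a median of -0.02. At an unadjusted p under 0.05, 2, 6 and 6 of them were lower and 0 higher, beside 5.64% of all genes lower. In the 10 libraries not low in Gnas 3 of 4, 7 of 8 and 21 of 22 were lower, with medians of -0.63, -0.10 and -0.20, but 1, 2 and 1 at an unadjusted p under 0.05. Over all genes 7564 of 15302 were lower in that fit, with a median of 0.003. DESeq2 called 1 smooth muscle marker (Myh11), 1 endothelial marker (Tek) and 3 matrix genes (Fbn1, Fn1 and Mmp2). For Fn1 that call depends on the filter. IF mouse 37 was at 93.4 CPM and the next IF mouse at 29.2 CPM, and the log2 fold change was -0.28 in edgeR, -0.71 in edgeR without that mouse, -0.66 in DESeq2 and -0.27 in DESeq2 on the genes of the edgeR filter, where it was not called. The most abundant members per length were Acta2, Cdh5 and Sparc. The smooth muscle markers summed to between 71.0 and 140 CPM in AL (median 101) and to between 31.98 and 97.3 CPM in IF (median 55.6). Markers of other cells outside the fibres were mostly lower too: 6 of 7 of fibroblasts (median -0.14), 7 of 9 of macrophages (-0.14), 4 of 4 of Schwann cells (-0.22), 5 of 5 of neutrophils and lymphocytes (-0.48), 4 of 6 of tendon (-0.36), 7 of 7 of joint and cartilage (-0.68) and 10 of 10 of adipocytes (-0.19). The joint and cartilage list was chosen after its values were seen, and 54.7% of all genes were lower. Erythrocyte markers had 4 of 5 higher (0.24). In males edgeR called 14 of 21 matrix genes lower and 2 higher (median -0.39), beside 23.0% of all genes called in either direction. Male calls were lower for 4 of 6 tendon markers (median -1.34) and 6 of 7 joint and cartilage genes (median -2.13), and 0 higher. For male smooth muscle markers 0 of 4 were called (median -0.05), and for endothelial markers 1 of 8 in each direction (median 0.13). In the 10 libraries not low in Gnas, the markers of neutrophils and lymphocytes were higher instead (5 of 5, median 0.23). Those of macrophages (9 of 9 lower, median -0.41, 3 at an unadjusted p under 0.05), Schwann cells (-0.52) and adipocytes (-0.77) were further below 0, as were those of joint and cartilage (-0.90), and the erythrocyte median was 0.53. The lowest sums of smooth muscle markers were those of IF mice 37, 38 and 39, and the diets overlapped through IF mice 33 and 34. In bulk samples fewer cells of a type and less RNA per cell cannot be told apart.

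Myh11, the myosin of smooth muscle, lay between 20.3 and 44.8 CPM in AL (median 29.8) and between 11.6 and 23.1 CPM in IF (median 17.4). Of the IF libraries 6 were below the lowest AL library. Its log2 fold change was -0.78 (95% interval -1.10 to -0.46), with an adjusted p of 0.185 in edgeR and 0.00186 in DESeq2. Tek, the angiopoietin receptor of endothelium, had -0.60 (95% interval -0.85 to -0.35), with adjusted p-values of 0.185 and 0.00727, and 7 IF libraries below the lowest AL library. Without IF mouse 33 edgeR called Tek as well (-0.69, adjusted p = 0.0338). Dusp6, a phosphatase of the ERK pathway, and Mylk, myosin light chain kinase, were chosen after their values were seen, from the 8 genes with the smallest p. Dusp6 lay between 8.21 and 17.1 CPM in AL and between 5.30 and 8.06 CPM in IF without overlap (log2 fold change -0.73, adjusted p = 0.185 in edgeR and 0.00298 in DESeq2). Mylk had -0.62, with 0.185 and 0.00439. Mtss2, chosen in the same way, was higher, between 83.7 and 102 CPM in AL and between 100.1 and 134 CPM in IF, with 0.33 and adjusted p-values of 0.185 and 0.00590. The interactions with sex were -0.85 for Myh11, -0.69 for Tek, -0.76 for Dusp6, -0.90 for Mylk, -0.94 for Acta2 and 0.75 for Mtss2, all called over the 32 libraries. The female log2 fold changes in the 10 libraries not low in Gnas were -0.56 for Myh11, -0.58 for Tek, -0.46 for Dusp6, -0.45 for Mylk and 0.33 for Mtss2.

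Other lists of muscle and cell biology held 0 genes called by edgeR, and the DESeq2 calls among them were Psmd9 of the proteasome and Insig1 of sterol regulation. Among all genes in the 16 libraries 6937 of 15308 were higher, and 5.10% were higher and 5.64% lower at an unadjusted p under 0.05. Ribosomal proteins had 84 of 96 higher in IF (median 0.12, 10 higher and 1 lower at an unadjusted p under 0.05), with Rplp1 the most abundant per length. Nuclear genes of the respiratory chain had 69 of 93 higher (median 0.07, 3 and 0), with Cox6a2 the most abundant, and the proteasome 28 of 38 (median 0.07, 4 and 0), with Psmb5 the most abundant. The genes of mitochondrial DNA for the respiratory chain had 11 of 13 lower (median -0.10, 0 and 2), with mt-Co1 the most abundant. These 4 directions turned without the libraries low in Gnas, that of the proteasome only to near the share of all genes. In the 10 other libraries 61 of 96 ribosomal proteins were lower (median -0.05, 0 higher and 7 lower at an unadjusted p under 0.05). So were 64 of 93 nuclear respiratory genes (median -0.05, 0 and 14) and 21 of 38 proteasome genes (median -0.02, 1 and 0). Over all genes 7564 of 15302 were lower there. The mitochondrial genes had 11 of 13 higher (median 0.14, 1 and 0). The sum of the ribosomal proteins was lowest in AL mice 29, 31 and 32, at 15835 to 18494 CPM, against 20612 to 27385 CPM in IF. Fatty acid synthesis had 16 of 20 lower (median -0.25, 0 and 3; Me1), cholesterol synthesis 15 of 21 (median -0.10, 2 and 1; Fdft1) and amino acid catabolism 15 of 22 (median -0.05, 2 and 2; Got1). Fatty acid synthesis in the 10 libraries not low in Gnas had 18 of 20 lower (median -0.72, 1 and 7) and cholesterol synthesis 16 of 21 (median -0.21, 1 and 2). Adipocyte markers (10 of 10 lower, median -0.77) moved with them there. So did milk protein and keratin genes, described further on (11 of 11 lower, median -0.94, beside 0.09 over all 16 libraries). Immediate early genes had 13 of 18 lower (median -0.20, 0 and 3), and Nr4a1 was the most abundant. These include Egr1, an early growth response factor chosen after its values were seen, at -1.28 (95% interval -2.11 to -0.45, adjusted p = 0.306).

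Stress and signalling lists had medians within 0.10 of 0 over the 16 libraries. Among all genes there 6937 of 15308 were higher, and 5.10% were higher and 5.64% lower at an unadjusted p under 0.05. Insulin and mTOR genes had 14 of 28 higher (3 higher and 2 lower at an unadjusted p under 0.05), with Ddit4l the most abundant per length. The integrated stress response had 7 of 16 higher (0 and 1; Atf4), endoplasmic reticulum chaperones 9 of 16 (1 and 0; Herpud1), autophagy and lysosome 14 of 25 (1 and 2; Ctsd), NAD synthesis and sirtuins 7 of 15 (0 and 0; Nmrk2) and AMPK subunits 4 of 8 (0 and 0; Prkab2). Polyamine genes had 10 of 11 higher (3 and 0; Oaz1), heat-shock and cold-inducible genes 5 of 20 (0 and 0; Cryab), antioxidant genes 9 of 15 (0 and 0; Gpx3) and metallothioneins with zinc transporters 2 of 7 (0 and 1; Mt1). Myogenic factors had 5 of 12 higher (3 and 0; Myf6), and junction genes 5 of 13 (1 and 1; Kcnj11). edgeR and DESeq2 called 0 in each of these lists. In the 10 libraries not low in Gnas, heat-shock and cold-inducible genes had 15 of 20 higher (median 0.12), myogenic factors 7 of 12 (median 0.14) and junction genes 9 of 13 (median 0.05). Over all genes 7738 of 15302 were higher there, and the median of metallothioneins with zinc transporters was -0.13. Over the 16 libraries the intervals lay within a 2-fold change for 87.7% of all genes. The counts were 25 of 28 insulin and mTOR genes, 18 of 18 wasting genes and 37 of 41 fatty acid oxidation genes. These intervals hold for that fit only, since fatty acid oxidation genes turned in direction in the 10 libraries not low in Gnas.

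Over the 16 libraries of both diets, the first principal component of log2 CPM held 28.2% of the variance, the second 13.5% and the third 8.19%, and AL and IF libraries overlapped on each. The 10 genes that weighed most on the first component included 3 caseins and 1 keratin, known from milk-producing epithelium, and Igha. A list of 13 such genes was chosen after the values were seen. Its sum lay between 0.287 and 258 CPM in AL and between 0.435 and 285 CPM in IF, and 11 of the 13 were tested. It was above 100 CPM in AL mice 26, 27 and 30 and in IF mice 33, 34, 35 and 40, and below 5 CPM in AL mice 25, 29 and 31 and in IF mice 36, 37 and 38. Krt18, a keratin of simple epithelia, was the most abundant per length, and Csn3, kappa-casein, had 0 counts in 5 libraries and reached 66.0 CPM in IF mouse 34. Igha, the heavy chain of secreted antibody, was high in many of the same libraries, from 0.0315 CPM in AL mouse 29 to 173 CPM in AL mouse 26. Of the 11 tested genes of the list, 8 were higher in IF over the 16 libraries (median 0.09), but 0 in the 10 not low in Gnas (median -0.94). With the libraries above 10 CPM of these genes left out, 3 AL and 3 IF mice remained and the diet contrast again called 1 gene. It also called 1 gene with their mean as a covariate over all 16 libraries. Both alternatives were chosen after seeing the data.

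Slow fibre content also varied from mouse to mouse. Myh7 ran from 19.5 to 859 CPM in AL (median 188) and from 0.783 to 913 CPM in IF (median 248). The 9 slow fibre genes summed to 6613 and 6124 CPM in AL mice 28 and 30 and to 7802 CPM in IF mouse 36, but to 108 CPM in IF mouse 37 and 283 CPM in AL mouse 32. Tnnc1, troponin C of slow muscle, was the most abundant of them per length. edgeR and DESeq2 called 0 of these 9 genes, 0 were under an unadjusted p of 0.05, and their intervals were wide (for Myh7 from -1.72 to 2.06 around 0.17). Without the libraries low in Gnas 9 of 9 were higher (median 0.99, beside 0.17 over all 16). The labels name no muscle, and posterior Hox genes, with Hoxc10 the most abundant per length, summed to between 176 and 265 CPM in AL and between 231 and 280 CPM in IF.

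Fat, immune and joint markers also varied among mice of the same diet. The 11 adipocyte markers, of which Cfd was the most abundant per length and Ucp1 was at 0 counts in 13 libraries, summed to between 265 and 1222 CPM in AL (median 488) and between 155 and 1011 CPM in IF (median 444). Adipoq, the adipocyte hormone adiponectin, lay between 7.82 and 58.2 CPM in AL and between 1.63 and 34.3 CPM in IF. All 10 tested markers had lower estimates in IF (median -0.19, and -0.77 in the 10 libraries not low in Gnas), with 0 at an unadjusted p under 0.05 and 0 called by edgeR or DESeq2. Lymphocyte genes, a list chosen after the values were seen with Ighm the most abundant per length, summed to between 84.0 and 247 CPM in AL and between 40.5 and 324 CPM in IF. Cd79a, a B cell receptor subunit, had its highest values in mice 39 (IF, 21.3 CPM) and 28 (AL, 18.1 CPM). Joint and cartilage genes, chosen in the same way with Cilp the most abundant per length, summed to 197 and 165 CPM in mice 25 (AL) and 37 (IF), against at most 68.5 CPM in the other 14 libraries. Prg4, the lubricant of joints, was at 98.3 and 88.8 CPM in those 2 libraries and at most 4.30 CPM elsewhere.

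The remaining marker lists held 0 genes called by edgeR or DESeq2. Macrophage markers (Lyz2 the most abundant per length) summed to between 59.8 and 129 CPM in AL and between 64.2 and 102 CPM in IF, and fibroblast markers (Dcn) to between 370 and 500.4 CPM and between 311 and 443 CPM. Tendon markers (Thbs4) ran from 42.7 to 91.5 CPM and from 33.1 to 79.1 CPM, with 1 lower at an unadjusted p under 0.05. Schwann cell markers (Pmp22) ran from 45.01 to 171 CPM and from 37.7 to 163 CPM, erythrocyte markers (Hbb-bs) from 53.9 to 403 CPM and from 143 to 580.3 CPM, and neutrophil and lymphocyte markers (Cd79a) from 4.85 to 34.8 CPM and from 2.66 to 41.3 CPM. Apart from that tendon gene, 0 members of these lists were under an unadjusted p of 0.05.

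**Figure D3:**
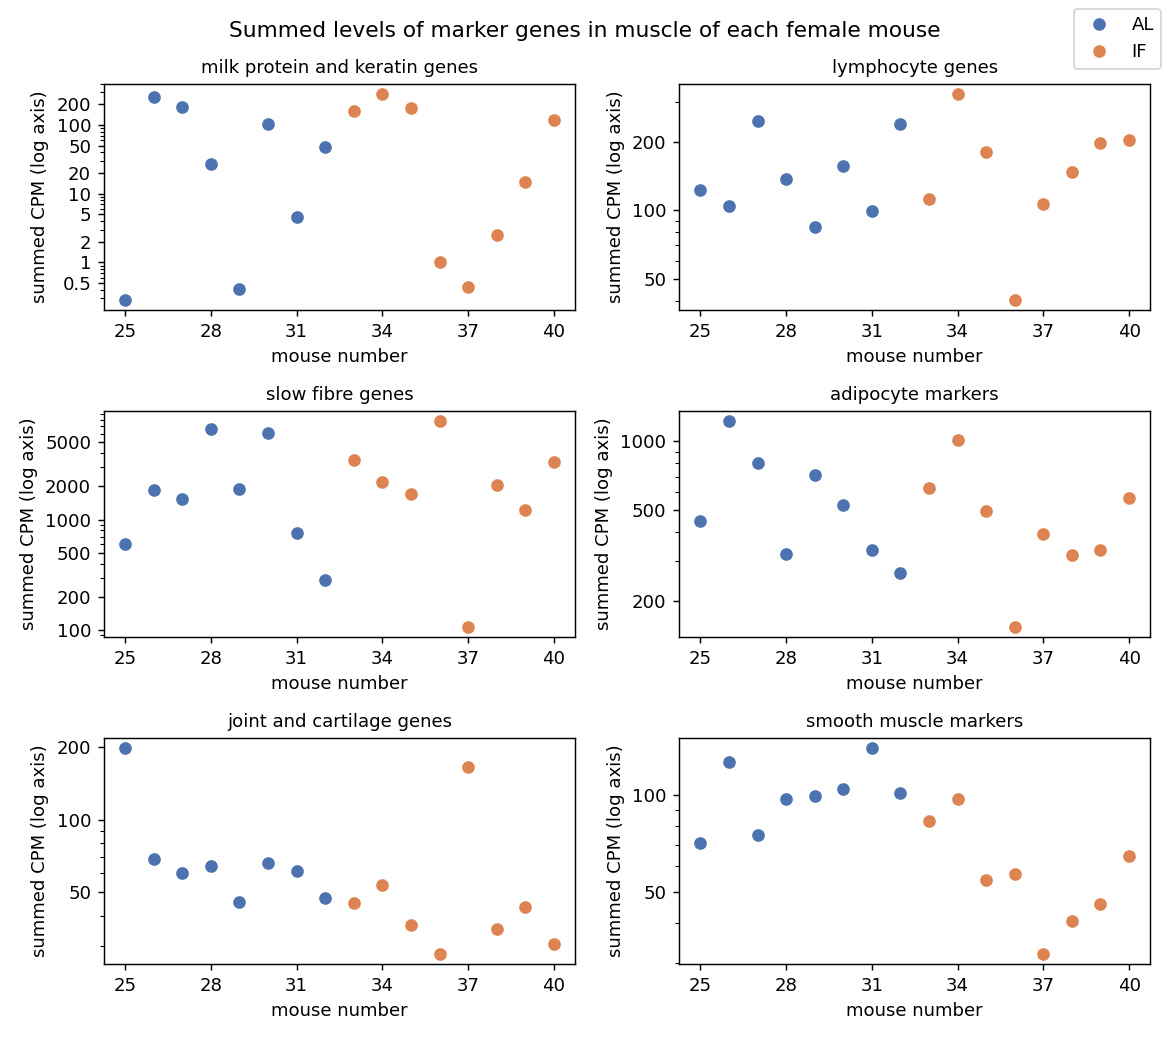
Each point is the summed CPM of a marker list in 1 female mouse, on a log scale, against the mouse number, with AL mice 25 to 32 and IF mice 33 to 40. Milk protein and keratin genes range from 0.287 to 285 CPM and slow fibre genes from 108 to 7802 CPM within these mice, and smooth muscle markers from 71.0 to 140 CPM in AL and from 31.98 to 97.3 CPM in IF.

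A few genes fell into separate levels that crossed the diets. Gnas, the stimulatory G protein alpha subunit, lay between 5.22 and 7.50 CPM in AL mice 28 to 32 and IF mouse 33, and between 68.4 and 115 CPM in the other 10 libraries. Whether these levels reflect expression or the assignment of reads to overlapping annotation was not tested. Low in Gnas therefore serves only as a label for those libraries. Cebpb, a transcription factor of fat and muscle, was at most 27.4 CPM in those 6 libraries and at least 37.4 CPM elsewhere. Its log2 fold change of 1.29 (95% interval 0.53 to 2.05) had an adjusted p of 0.267 in edgeR and 0.0378 in DESeq2, and 5 of the 6 libraries are AL. In the 10 other libraries, 3 AL and 7 IF, its log2 fold change was 0.74 (95% interval 0.16 to 1.32, adjusted p = 0.670). Gapdh, which has many near-identical copies in the genome and is therefore uncertain, was at 24.9 CPM in AL mouse 29 and at least 905 CPM in the others. These genes were chosen after their values were seen.

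The spread between mice was somewhat larger than in male muscle. The median SD of log2 CPM within a diet was 0.245 in females and 0.233 in males over 14680 genes, and the biological coefficient of variation of the fit was 0.247 and 0.194. In males 3463 of 15025 genes were called (23.0%), 1726 higher and 1737 lower. Of the 3428 male-called genes that were tested in females, 1355 (39.5%) had the same sign in females, and the female 95% interval excluded the male estimate for 2981. The interaction was called for 1854 of them. Over all 14680 genes tested in both sexes the same sign was found for 43.6%, an excluded male estimate for 6461 and a called interaction for 2276. The first counts are a description, since those genes were chosen by their male values. Over all 2314 called interactions, 1207 were higher and 1107 lower in the female response, and the male change was the larger in size for 1976 of the 2276 genes tested in both (86.8%). Of the called interactions 1863 were also called in males and 1 in females, so that share is in part set by the choice of genes.

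The 6 largest called interactions among genes with a mean of at least 1 CPM over the 32 muscle libraries were all negative. Cidea, a lipid droplet protein, had -5.23 (SE 1.18, adjusted p = 0.00325), and Pck1, which makes the glycerol backbone of fat, -4.91 (SE 0.96, adjusted p = 0.000862). H2-Q10, a class I histocompatibility gene, had -4.76, Elovl6, a fatty acid elongase, -4.44, Arxes2, an adipocyte gene, -4.33, and Fasn, fatty acid synthase, -4.14. Pck1 lay between 3.30 and 48.7 CPM in AL and between 0.544 and 22.2 CPM in IF females, with a log2 fold change of -0.49 (95% interval -1.80 to 0.81), against 4.45 in males. Fasn lay between 8.43 and 153 CPM in AL and between 6.89 and 115 CPM in IF. In males 9 of 10 adipocyte markers were called higher in IF (median 2.03), so these markers moved with diet in the males. Their part in the interactions was not tested beyond a fit with the markers as a covariate, chosen after seeing the data, which called 3240 genes, 1846 of them among the 2314.

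In the other tissues of the same female mice few genes were called as well. In liver edgeR called 0 of 15938 genes (0%), with 919 at an unadjusted p under 0.05, and DESeq2 was not run there. In cortex 2069 of 18403 genes were at an unadjusted p under 0.05. There 2 genes were called (0.0109%), mt-Atp6 at -2.43 and Gm11263 at -1.15. Neither was called in female muscle, where they had -0.14 and 0.39.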

How the data were processed

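Poly-A RNA libraries of skeletal muscle were sequenced in pairs of reads. The authors aligned the reads to GRCm39 (mm39) with HISAT2 after base calling with CASAVA, and deposited raw counts per gene. The labels give no version of either tool, the study's methods give an aligner version for the males only, and the strand setting of the counting is not stated. The 32 count columns of male liver and cortex were not used.

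Counts were analysed in R 4.3.3. Genes that passed edgeR's expression filter (minimum count 10, minimum total 15) were kept, scaled by TMM and tested with the quasi-likelihood test of edgeR 4.0.16, two-sided. A prior count of 2 was used for log2 CPM, and the test kept edgeR's default prior count. Genes with a Benjamini-Hochberg adjusted p under 0.05 were called. DESeq2 1.42.0 served as the other tool, and intervals are at 95%. The number of mice and the spread between them set the precision. The scripts were tested on simulated data, and figures were drawn with Python 3.11.15 and matplotlib 3.10.9.

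Members and lists were chosen with earlier results of these data known. Named genes were the called genes without overlap between diets (at most 12 in each direction), the called and the most abundant members of each list, all clock, sex and study genes, and the 6 largest called interactions with a mean of at least 1 CPM. A few list members are not reported here, and their lists are counted without them. Other named genes were chosen after their values were seen. The promoter motif search was not made, since 1 gene was called. Alternatives varied scaling, tool, filter, threshold, block, covariates and libraries, and 9 of them were chosen after seeing the data.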

Additional observations from a re-analysis of the deposited data

Results flagged for a closer look

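In each diet, the highest or lowest of the 8 mice was compared with the next one, as the gap between them divided by the range of the 8 on log2 CPM. In 26 of 218 groups (11.9%) that ratio was above the critical value of Dixon's test at 95%, where chance alone gives about 1 group in 20. That chance share does not apply to genes chosen after their values were seen, such as Gnas, Gapdh and Prg4, and genes of 1 list are not independent. On CPM itself 31 groups were above it. IF mouse 37 accounts for 8 of the 26, IF mouse 36 for 5, IF mouse 40 for 3, and 8 of the 26 are AL mice.

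IF mouse 37 was highest for Fn1 (0.720), Hoxc10 (0.741), Prg4 (0.736), Ctsd (0.537) and Cox6a2 (0.528). It was lowest for the slow fibre genes Myh7 (0.744) and Tnnc1 (0.647) and for Xist (0.584). IF mouse 36 was lowest for the fat genes Adipoq (0.570), Cfd (0.592) and Pck1 (0.668), and for H2-Q10 (0.615) and Bhlhe41 (0.605). IF mouse 40 was lowest for Nr1d1 (0.670) and Bhlhe40 (0.559) and highest for Ddit4 (0.532). Gnas was lowest in IF mouse 33 (0.840), and Klf15 in IF mouse 34 (0.616).

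Among AL mice, mouse 29 was lowest for Gapdh (0.880) and Myf6 (0.644), and mouse 31 was highest for mt-Rnr1 (0.584) and mt-Rnr2 (0.535). Prg4 was highest in mouse 25 (0.760), Psmd9 in mouse 26 (0.639) and Dcn in mouse 27 (0.665), and Hbb-bs was lowest in mouse 28 (0.541).

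The diet response of 48 of 109 named genes differed between female and male muscle in edgeR's test of the interaction (14.2% of all genes), given here as the female minus the male log2 fold change. Some of these genes were named for that difference or for their difference in males, so the count is in part set by the choice, and 30 of the 48 were called without the 6 female libraries low in Gnas. Among clock genes it was 2.15 for Nr1d1, 0.44 for Clock, 0.41 for Cry1, -1.77 for Per1, -1.27 for Per2, -1.05 for Per3 and -0.50 for Rora. Among genes of fat and lipid it was -5.23 for Cidea, -4.91 for Pck1, -4.44 for Elovl6, -4.33 for Arxes2, -4.14 for Fasn, -3.22 for Cfd, -2.81 for Adipoq, -1.02 for Insig1 and -0.41 for Fdft1. H2-Q10 had -4.76.

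Among genes of fuel use, wasting and glucocorticoid response it was -3.08 for Pdk4, -2.07 for Ucp3, -2.49 for Ddit4, -1.42 for Fbxo32, -1.31 for Glul, -1.11 for Trim63, -1.06 for Tsc22d3 and -0.81 for Klf15. Pkm had 0.53 and Pygm 0.29. Other genes named for male muscle had 1.17 (Grip2), 1.04 (Aurka), 0.96 (Shc2), 0.88 (Ank1), 0.77 (Kcnj11) and -0.70 (Nr4a1).

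Genes of vessels and matrix had -0.94 (Acta2), -0.90 (Mylk), -0.85 (Myh11), -0.69 (Tek) and 0.53 (Fbn1). The remaining values were 1.85 for Rn18s-rs5, -1.72 for Klf10, -0.77 for Mt1, -0.76 for Dusp6, 0.75 for Mtss2, -0.40 for Myf6, 0.40 for Psmb5, 0.40 for Tpm1, 0.36 for Psmd9 and 0.29 for Acta1.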

How the results depend on the processing

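The edgeR count of 1 called gene was the same gene with RLE size factors, with at least 10 counts in every library, with a 2-fold minimum and with the adipocyte, slow fibre or erythrocyte markers as a covariate. It was 83 with DESeq2 (48 higher and 35 lower in IF; 32913 genes tested), 5 with no filter beyond 1 count, 38 in one fit over the 32 muscle libraries, and 1644 without adjustment of p. The DESeq2 and the 32-library calls shared 34 genes, and the cause was not tested. Of the alternatives chosen after seeing the data, DESeq2 on the genes of the edgeR filter called 91, the fit with 4 covariates together called 10 genes, and the fit without the 6 libraries low in Gnas called 0 in edgeR (1163 at an unadjusted p under 0.05; DESeq2 was not run on it). Rn18s-rs5 was among the called genes of every alternative but that one, with log2 fold changes between 0.91 and 1.18. Leaving out each library in turn gave counts from 1 to 3 (3 without AL mouse 27 and 2 without IF mouse 33).

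With the replicate block the count was 1. Of 8 pairs of AL and IF mice with the same number, 4 had a correlation of residuals over 0.1 (range -0.262 to 0.457) and 1 was most like its own partner, so the numbers do not pair the mice.

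The interaction count of 2314 was between 2324 and 3240 in the alternatives at an adjusted p under 0.05 (those with adipocyte or slow fibre covariates were chosen after seeing the data), apart from 922 without the 6 female libraries low in Gnas (3 AL and 7 IF left, chosen after seeing the data; the cause was not tested), and 4527 without adjustment. The share of distance between diets was 2.84% over the 500 most variable genes (exact permutation p = 0.880), 6.29% to 7.64% with a library left out, and 17.6% on linear CPM (exact permutation p = 0.0430); the cause was not tested.

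Of 3587 estimates for 109 named genes, 3339 kept their sign and their side of the threshold and 0 called ones reversed. In 46 genes 176 uncalled estimates changed sign, 71 estimates in 34 genes came past the threshold (33 of them without adjustment of p), and 1, that of Rn18s-rs5, was no longer past it. At this depth genes below the expression filter, such as Npas2, were not tested in the diet contrast.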
